A study of Mus musculus with 8 samples.

Results

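Transcripts of 34 DNA repair and checkpoint genes were measured in haematopoietic stem cells, sorted from mouse bone marrow as LSK CD48- CD150+ cells (lineage-negative, Sca-1-positive, Kit-positive). The genes were taken by name from a list whose members are single-strand DNA binding proteins, ligases, break-repair factors, Fanconi anaemia proteins, checkpoint kinases and RecQ helicases. All 34 were matched to an identifier among the 53715 genes counted, and all 34 passed the filter on low counts that left 13992 genes for testing. 4 libraries came from mice labelled Gata2 heterozygote, described as Gata2; Mx1-Cre, and 4 from mice labelled Gata2 wild type, with 1 library per mouse. Every mouse was 8 to 12 weeks old and had received 6 doses of pIpC, a double-stranded RNA mimic that induces interferon, so the wild-type mice had the same exposure. Mx1-Cre is a recombinase transgene that interferon switches on in blood cells and in other interferon-responsive tissues. The descriptions name it for the heterozygotes alone, so the transgene and the Gata2 allele cannot be told apart.

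Stem cells that are mostly quiescent carry few replication-linked repair proteins and lean on end joining, and repair by homologous recombination becomes available once they copy their DNA. Replication protein A coats single-stranded DNA, the kinases ATM and ATR read breaks and stalled forks, and CHK2 and CHK1 pass those signals to the cell cycle. The Fanconi anaemia proteins remove crosslinks between strands, and inherited loss of that pathway causes bone marrow failure. Interferon, which pIpC induces, drives quiescent stem cells into division.

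Libraries held between 16750778 and 22861884 fragments assigned to genes. Gata2 itself was not lower in the heterozygote-labelled libraries. It measured 35.5, 61.9, 36.7 and 45.1 CPM (fragment counts scaled to a common library size) in heterozygote-labelled replicates 1 to 4, against 30.1, 45.3, 29.1 and 38.5 CPM in wild-type replicates 1 to 4. The difference, heterozygote label over wild type, was 0.33 on the log2 scale (SE 0.23, edgeR adjusted p = 0.858). The counts sum all exons, so they do not show whether an allele had recombined, and each direction below follows the labels. Of the stem cell markers, Procr, Mecom, Hlf, Slamf1, Hoxb5 and Ctnnal1 were detected in all 8 libraries and Fgd5 in 7, while 4 of 7 lymphoid markers, Cd3e, Il7r and Trbc1 among them, had 0 counts in all 8. Of the other lymphoid markers, Nkg7 ranged from 312 to 510 CPM in heterozygote-labelled and from 228 to 432 CPM in wild-type libraries, Ighm was detected in all 8 at up to 5.58 CPM and Cd79a in 3 at up to 0.68 CPM. Of the myeloid markers, Lyz2 ranged from 337 to 387 CPM and S100a8 from 20.1 to 91.7 CPM over all libraries. Mpo, Elane and Ctsg had 0 counts in 1, 1 and 3 libraries. Of the stroma markers, Pecam1 was detected in all 8, and Cxcl12, Col1a1, Lepr and Cdh5 each had 0 counts in 3 or 4. Wild-type replicate 3 stood apart from the other wild-type libraries. Its deviation from the mean correlated with the GC content of genes at -0.162 across genes, against 0.0402 to 0.232 in the other wild-type libraries and -0.0988 to -0.0342 in the heterozygote-labelled ones. Genes are not independent replicates, and this is a description of the libraries.

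None of the 34 repair and checkpoint genes passed the threshold. With edgeR's quasi-likelihood test 0 members had an adjusted p under 0.05, the smallest being 0.850, and over all 13992 genes the share called was 0.0%. DESeq2 called 0 members, with a smallest adjusted p of 0.255, against 0.505% of the 15650 genes for which it gave an adjusted p, and limma called 0 members as well. At an unadjusted p under 0.05 the edgeR fit held 4 members, Rpa1, Lig1, Rad54l and Xrcc2, all of them lower in heterozygote-labelled libraries. Over all genes tested 3.29% were lower and 2.37% higher at that level. 23 of the 34 members had a negative log2 fold change (67.6%), against 52.0% of all genes tested, and the median over members was -0.15 against -0.02 over all genes.

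No member separated the genotypes completely. The groups overlapped in all 34, whereas 1.82% of all genes tested had every heterozygote-labelled library below every wild-type library and 1.65% had them all above. In 10 members all 4 heterozygote-labelled libraries lay below the wild-type mean, a pattern shown by 18.0% of all genes tested, and in 0 members did all 4 lie above it, which held for 12.4% of genes. Those 10 were Rpa1, Lig1, Xrcc1, Msh6, Rad54l, Xrcc2, Xrcc3, Palb2, Chek2 and Wrn, chosen after their values were seen. The summed level of the 34 genes was 1821, 2048, 1834 and 1958 CPM in heterozygote-labelled replicates 1 to 4, against 2046, 2097, 2092 and 2050 CPM in wild-type replicates 1 to 4. In bulk RNA, fewer cells with a transcript and less transcript per cell cannot be told apart.

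The median over members was -0.05 (all genes 0.03) once each library's trend on GC content and gene length was removed. When single libraries were left out it ranged from -0.22 to -0.05. It was -0.05 without heterozygote-labelled replicate 1 and -0.08 without wild-type replicate 4. The number at an unadjusted p under 0.05, in either direction, depended on single libraries. It was 2 without heterozygote-labelled replicate 1, and 1 without heterozygote-labelled replicate 3 or without wild-type replicate 1, 2 or 4. The 1 without wild-type replicate 2 was Lig3, higher at 0.72. Without wild-type replicate 3 the number was 9, of which Rpa3 (0.38) and Xrcc5 (0.47) were higher. There 12.5% of all genes were at that level, against 5.66% with all 8 libraries.

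**Figure D1:**
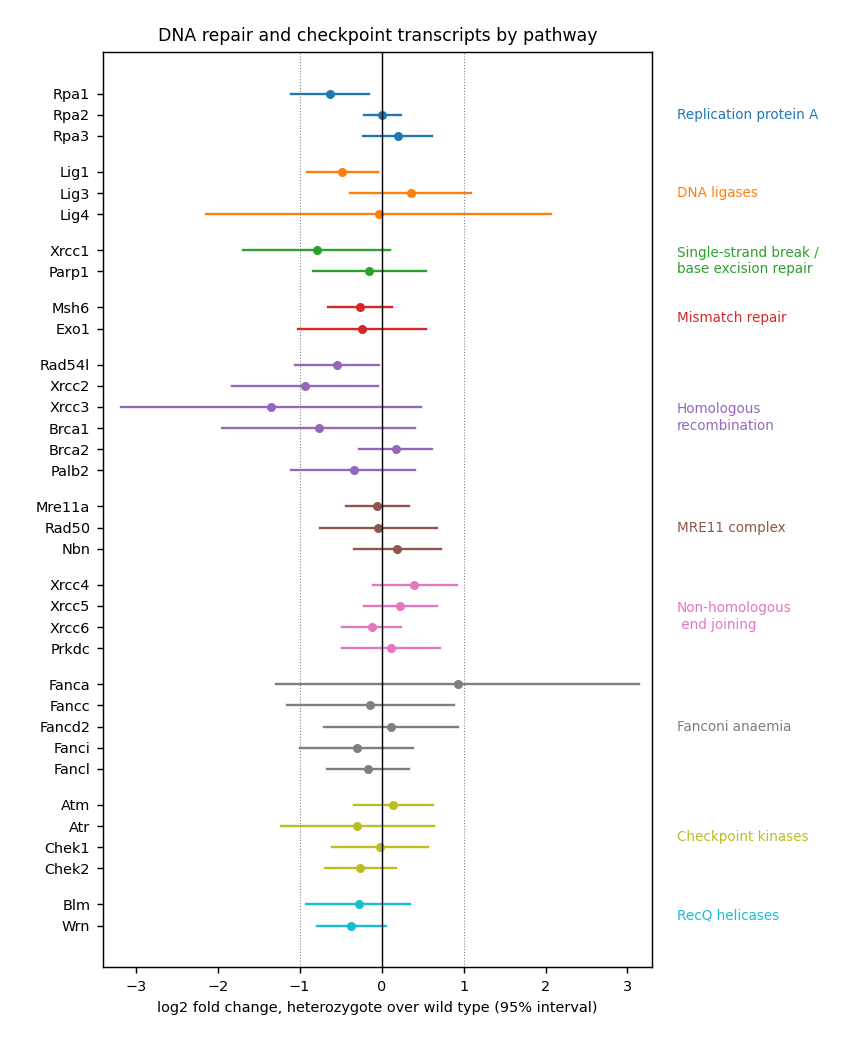
Log2 fold change, heterozygote label over wild type, for each of the 34 genes (points) with its 95% interval from the edgeR fit (lines), grouped and coloured by pathway, with dotted lines at a 2-fold difference. 30 of 34 intervals include 0, and the 4 that do not belong to Rpa1, Lig1, Rad54l and Xrcc2.

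Levels spanned a wide range. As FPKM, which is CPM divided by exon length in kilobases, Rpa3 averaged 210 ± 30.9 FPKM in heterozygote-labelled and 183 ± 49.5 FPKM in wild-type libraries (SD, n = 4 each), the highest of the 34. Rpa2 came next, with 97.1 ± 8.96 FPKM in heterozygote-labelled and 96.4 ± 7.44 FPKM in wild-type libraries. Of the Ku subunit genes, Xrcc6 averaged 50.0 ± 8.27 FPKM in heterozygote-labelled and 54.3 ± 10.3 FPKM in wild-type libraries, and Xrcc5 averaged 36.6 ± 3.91 FPKM in heterozygote-labelled and 31.2 ± 9.60 FPKM in wild-type libraries. Xrcc6 and Xrcc5, neighbours in this order, were separated by more than 1 SD under both labels. This SD is over mice and holds no error in the exon length, which covers all annotated exons of a gene. At the low end Lig4 averaged 0.922 ± 0.673 FPKM in heterozygote-labelled and 0.943 ± 0.506 FPKM in wild-type libraries, and Fanca 0.159 ± 0.101 FPKM in heterozygote-labelled and 0.0833 ± 0.0576 FPKM in wild-type libraries. Neighbours in the middle of the order, such as Rad50, Mre11a, Wrn and Parp1 with means between 8.69 and 9.64 FPKM in wild type, lay within 1 SD of each other there. 28 members had at least 100 fragments in every library. The others, Lig4, Xrcc1, Xrcc3, Brca1, Palb2 and Fanca, had fewer in at least 1 library.

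The promoters of 3 genes are shown to set beside their values. Rpa1 and Rpa2 encode subunits of 1 protein complex and had log2 fold changes of -0.63 and 0.01, and Rad54l is the member with the smallest exact permutation p. Each window is the RefSeq sequence of build GRCm38.p6 from 250 bases before to 50 after the annotated start, read 5′ to 3′ on the strand of the gene, with CCAAT boxes (CCAAT on either strand) in capitals.
Rpa1 (chr11:75348334-75348633, minus strand): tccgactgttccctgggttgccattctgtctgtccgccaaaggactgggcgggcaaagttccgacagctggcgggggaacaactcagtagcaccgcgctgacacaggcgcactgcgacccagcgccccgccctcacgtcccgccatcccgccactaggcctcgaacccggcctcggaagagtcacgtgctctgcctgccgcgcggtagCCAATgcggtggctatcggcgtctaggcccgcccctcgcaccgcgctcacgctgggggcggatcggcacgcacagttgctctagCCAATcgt
Rpa2 (chr4:132768110-132768409, plus strand): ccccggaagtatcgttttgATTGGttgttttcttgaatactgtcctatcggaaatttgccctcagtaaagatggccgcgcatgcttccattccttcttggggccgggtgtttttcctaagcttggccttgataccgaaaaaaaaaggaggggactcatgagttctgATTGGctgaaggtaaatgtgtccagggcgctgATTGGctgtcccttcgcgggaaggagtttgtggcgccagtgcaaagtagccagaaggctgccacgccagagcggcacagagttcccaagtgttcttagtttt
Rad54l (chr4:116123641-116123940, minus strand): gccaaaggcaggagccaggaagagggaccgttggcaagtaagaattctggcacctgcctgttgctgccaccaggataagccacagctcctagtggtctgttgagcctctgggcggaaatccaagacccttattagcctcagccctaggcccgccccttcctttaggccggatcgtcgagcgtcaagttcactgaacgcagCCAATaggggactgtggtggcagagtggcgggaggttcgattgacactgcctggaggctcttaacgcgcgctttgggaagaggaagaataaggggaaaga

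The Rpa1 window holds 33 CG pairs and a CCAAT box that begins 42 bases before the start, with another at base 43 after it. RefSeq places this start upstream of the GENCODE one, whose coordinates are given with the gene. Rpa2 holds 13 CG pairs and 3 CCAAT boxes, all on the opposite strand, with first letters 231, 84 and 52 bases before the start. In Rad54l, with 13 CG pairs, the box begins 50 bases before the start. Windows were found for 27 of the 34 members, and CCAAT on either strand was present in 17 of them (63.0%), against 39.2% of the 9728 windows of genes tested. For E2F only TTTGGCGC and TTTCGCGC were searched, on either strand, and other forms of the site were not. Those letters were in 0 of 27 member windows and 1.66% of windows of genes tested. GATA letters (AGATA or TGATA followed by A or G, either strand) were in 2 of 27, those of Fancc and Xrcc4, against 19.0% of windows of genes tested. The letters TTTGAA or TTCGAA, known from promoters of cell-cycle genes, were on either strand in 1 of 27, Atr, against 14.6%. These searches describe letters in 300 bases and do not show binding or its absence.

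Of the 3 subunits of replication protein A, the large one had a lower mean in the heterozygote-labelled libraries and the smaller ones did not, and none passed the adjusted threshold. Rpa1, which holds the main single-strand DNA binding domains, lies on chromosome 11 from 75298166 to 75348324 (GRCm38, minus strand). It measured 130, 104, 89.3 and 120 CPM in heterozygote-labelled replicates 1 to 4, against 194, 227, 114 and 151 CPM in wild-type replicates 1 to 4. Wild-type replicate 3 lay within the heterozygote-labelled range and the other 3 wild-type libraries lay above it. On the log2 scale the difference was -0.63 (SE 0.21, 95% interval -1.10 to -0.15), with an adjusted p of 0.850 by edgeR. An exact two-sided permutation test over the 70 assignments of the libraries gave p = 0.0857, where 0.0286 is the smallest possible. Across all alternatives run Rpa1 stayed negative. It lay between -0.78 and -0.45 when single libraries were left out, and the -0.78 came without wild-type replicate 3 (adjusted p = 0.159).

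Rpa2, the subunit that checkpoint kinases phosphorylate, measured 329, 279, 288 and 267 CPM in heterozygote-labelled replicates 1 to 4, against 290, 282, 318 and 265 CPM in wild-type replicates 1 to 4. The groups overlapped almost fully, and its coefficient of variation in wild type, 7.72%, was the smallest of the 34. Its difference of 0.01 on the log2 scale had an interval of -0.22 to 0.24, so a 2-fold difference lay outside it. Rpa3, the smallest subunit, differed by 0.20 (interval -0.23 to 0.62). The log2 fold change of Rpa2 was -0.05 when library size alone scaled the counts, and that of Rpa3 was -0.02 with the GC and length trend removed.

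Of the 3 DNA ligases, Lig1 had a negative log2 fold change, Lig3 a positive one and Lig4 a value near 0, and none passed the adjusted threshold. Lig1 seals Okazaki fragments during replication and takes part in long-patch excision repair. Lig1 (chromosome 7, 13277283 to 13311433, plus strand) measured 76.4, 89.7, 77.0 and 113 CPM in heterozygote-labelled replicates 1 to 4, against 141, 149, 87.4 and 120 CPM in wild-type replicates 1 to 4. Wild-type replicate 3 again lay among the heterozygote-labelled libraries. Lig1 differed by -0.48 on the log2 scale (SE 0.19, interval -0.91 to -0.05, adjusted p = 0.850), and the exact permutation test gave p = 0.0857. With the GC and length trend removed it differed by -0.23. Leaving out single libraries gave -0.62 to -0.37, with -0.62 without wild-type replicate 3 (adjusted p = 0.194).

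Lig3, the ligase of mitochondria and of single-strand break repair, measured 14.6, 23.3, 30.5 and 24.9 CPM in heterozygote-labelled replicates 1 to 4, against 13.7, 29.9, 14.7 and 14.5 CPM in wild-type replicates 1 to 4. Wild-type replicate 2 was high and the other 3 wild-type libraries sat close together at the low end. Lig3 differed by 0.36 on the log2 scale (SE 0.33), and by 0.72 without that library (adjusted p = 1.00). The range with single libraries left out was 0.20 to 0.72. Lig4, the ligase of end joining, had 0.0501, 6.55, 8.13 and 4.45 CPM in heterozygote-labelled replicates 1 to 4, against 3.81, 1.70, 6.94 and 7.18 CPM in wild-type replicates 1 to 4. The first heterozygote-labelled value rests on 1 fragment. With an interval of -2.14 to 2.07 around -0.03, a 2-fold difference in either direction could not have been detected in these libraries.

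Both members of single-strand break repair had negative values. Xrcc1, the scaffold that brings ligase III to nicks, measured 4.26, 5.33, 3.65 and 3.48 CPM in heterozygote-labelled replicates 1 to 4, against 6.04, 10.7, 3.73 and 8.50 CPM in wild-type replicates 1 to 4. Of its wild-type libraries only replicate 3 lay within the heterozygote-labelled range. On the log2 scale Xrcc1 differed by -0.79 (SE 0.40, adjusted p = 0.850), and by -1.01 without that library (adjusted p = 0.304). The range with single libraries left out was -1.01 to -0.53. Parp1, the nick sensor that makes poly(ADP-ribose), measured 32.2, 41.0, 30.8 and 61.6 CPM in heterozygote-labelled replicates 1 to 4, against 53.9, 50.7, 23.9 and 55.4 CPM in wild-type replicates 1 to 4. Here wild-type replicate 3 was the lowest of all 8 libraries and heterozygote-labelled replicate 4 the highest. Parp1 differed by -0.15 on the log2 scale (SE 0.31), and by 0.05 with the GC and length trend removed.

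In mismatch repair, Msh6, a subunit of the complex that reads base mismatches, measured 105, 91.5, 67.6 and 87.7 CPM in heterozygote-labelled replicates 1 to 4, against 98.7, 109, 130 and 84.2 CPM in wild-type replicates 1 to 4. Unlike for Rpa1 and Lig1, wild-type replicate 3 held the highest value. The labels differed by -0.26 on the log2 scale (SE 0.18). Exo1, the exonuclease that removes the mismatched strand and also resects breaks, differed by -0.24 (SE 0.35), with values from 18.6 to 48.5 CPM in heterozygote-labelled and 19.6 to 52.6 CPM in wild-type libraries.

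Homologous recombination had the lowest pathway median of the 10 groups, at -0.66 on the log2 scale, with 5 of its 6 members negative and 0 past the threshold. A further 14 recombination genes that are no members had a median of -0.02, with 8 of the 14 negative and 0 past the threshold. Rad54l, a motor protein that helps the broken strand invade the intact duplex, lies on chromosome 4 from 116094264 to 116123690 (minus strand). It measured 45.2, 51.7, 27.6 and 30.1 CPM in heterozygote-labelled replicates 1 to 4, against 54.0, 62.8, 45.9 and 63.2 CPM in wild-type replicates 1 to 4. Heterozygote-labelled replicate 2 lay above wild-type replicate 3, and that was the one crossing between the groups. A log2 fold change of -0.55 (SE 0.23, interval -1.06 to -0.03) came with an adjusted p of 0.850. The exact permutation p of 0.0571 was the smallest among the 34 members.

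Xrcc2, a mediator of recombination, lies on chromosome 5 from 25689812 to 25705825 (minus strand). It measured 11.1, 8.39, 12.5 and 12.3 CPM in heterozygote-labelled replicates 1 to 4, against 38.0, 19.0, 9.14 and 18.3 CPM in wild-type replicates 1 to 4. The heterozygote-labelled libraries were close together, with a coefficient of variation of 17.1% against 57.5% in wild type, and wild-type replicate 1 held the high value. Xrcc2 differed by -0.93 on the log2 scale (SE 0.40, interval -1.82 to -0.05, adjusted p = 0.850), with an exact permutation p of 0.114. When single libraries were left out it lay between -1.18, without wild-type replicate 3, and -0.48, without wild-type replicate 1. Xrcc3, a further recombination mediator, differed by -1.35 (SE 0.82), the most negative value of the 34, on 3 to 224 fragments per library.

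Brca1, which directs broken ends toward recombination, measured 6.56, 6.37, 12.9 and 3.84 CPM in heterozygote-labelled replicates 1 to 4, against 19.8, 16.2, 3.73 and 11.0 CPM in wild-type replicates 1 to 4. The lowest of all 8 values was in wild-type replicate 3, and the groups overlapped broadly. Brca1 differed by -0.77 on the log2 scale (SE 0.53), and by -1.08 without that library (adjusted p = 0.358). Its range with single libraries left out was -1.18 to -0.46. Brca2, which prepares resected single-stranded DNA for strand exchange, measured 19.1, 22.3, 24.5 and 22.8 CPM in heterozygote-labelled replicates 1 to 4, against 21.2, 19.2, 16.2 and 22.4 CPM in wild-type replicates 1 to 4. The difference of 0.17 on the log2 scale (interval -0.28 to 0.62) was the one positive value among the 6 recombination members. Palb2, the link between BRCA1 and BRCA2, differed by -0.34 (SE 0.34).

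**Figure D2:**
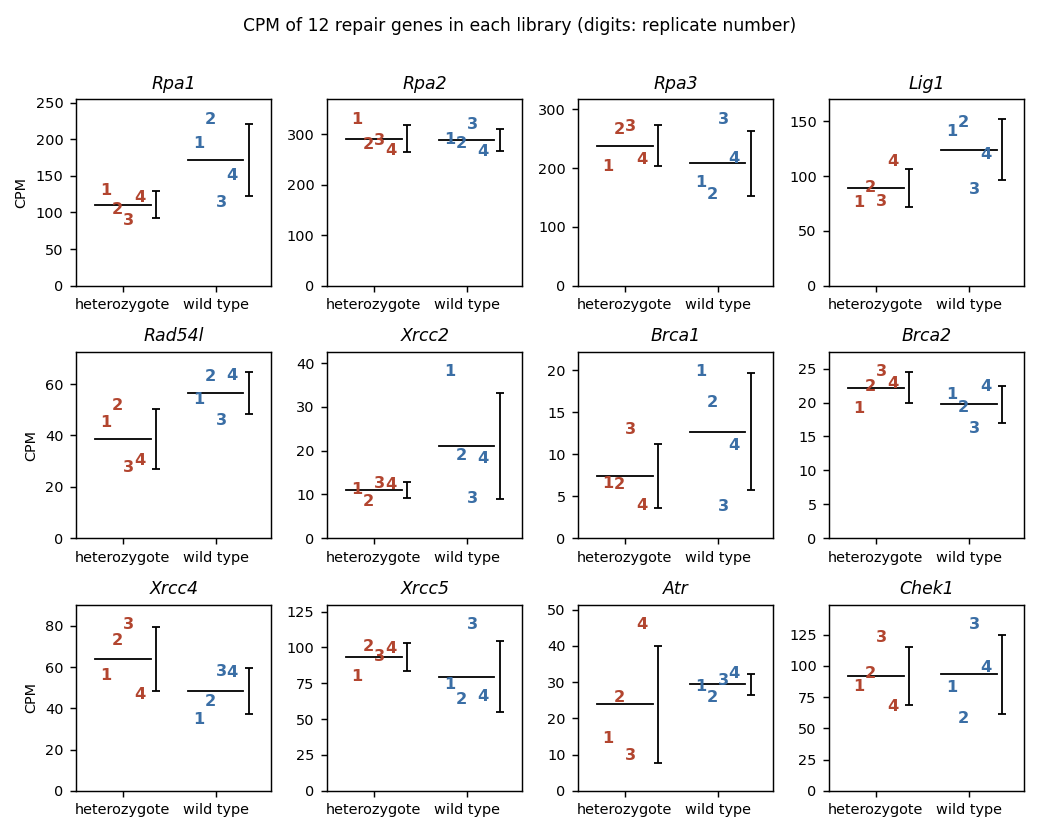
CPM of 12 of the genes in each library, heterozygote label to the left of wild type, with digits giving the replicate number, horizontal lines the group means and vertical bars 1 SD. Wild-type replicate 3 lies within the heterozygote-labelled range for Rpa1, Lig1, Rad54l and Xrcc2, and Rpa2 is nearly level across all 8 libraries.

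The MRE11 complex, which binds broken ends and activates ATM, had its 3 members between -0.06 and 0.19 on the log2 scale. Rad50, its long tether, measured 38.0, 69.7, 43.0 and 51.2 CPM in heterozygote-labelled replicates 1 to 4, against 40.6, 74.9, 27.0 and 64.7 CPM in wild-type replicates 1 to 4. The spread within each genotype was much larger than the log2 fold change of -0.04 (interval -0.75 to 0.68). Mre11a, the nuclease, differed by -0.06 (interval -0.44 to 0.33) and Nbn, the subunit that recruits ATM, by 0.19 (interval -0.34 to 0.72). All 3 intervals lay within a 2-fold difference in either direction. The signs of Rad50, Mre11a and Nbn each turned when some single library was left out.

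Non-homologous end joining had the highest pathway median of the 10 groups, 0.17 on the log2 scale, with 3 of its 4 members positive and 0 past the threshold. Xrcc5 encodes Ku80, the larger subunit of the ring that captures broken ends. It measured 79.4, 101, 93.4 and 99.5 CPM in heterozygote-labelled replicates 1 to 4, against 73.9, 63.5, 116 and 65.5 CPM in wild-type replicates 1 to 4. The heterozygote-labelled libraries all lay above 3 of the wild-type libraries and below wild-type replicate 3. Xrcc5 differed by 0.23 on the log2 scale (SE 0.20, adjusted p = 0.887), and by 0.47 without that library (adjusted p = 0.224). Its range with single libraries left out was 0.15 to 0.47. Xrcc6, the Ku70 partner, measured 197, 250, 187 and 261 CPM in heterozygote-labelled replicates 1 to 4, against 204, 240, 309 and 220 CPM in wild-type replicates 1 to 4. Its value of -0.12 (SE 0.16) was 0.04 with the GC and length trend removed.

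Prkdc, the DNA-dependent kinase that Ku recruits, measured 16.2, 22.5, 12.4 and 25.2 CPM in heterozygote-labelled replicates 1 to 4, against 19.8, 19.2, 15.4 and 16.2 CPM in wild-type replicates 1 to 4. Wild-type libraries lay inside the heterozygote-labelled range, and the log2 fold change was 0.11 (SE 0.27). Xrcc4, the partner of ligase IV, ranged from 46.7 to 80.7 CPM in heterozygote-labelled and from 34.8 to 57.7 CPM in wild-type libraries. The difference of 0.40 on the log2 scale (SE 0.23, adjusted p = 0.850) stayed positive in every alternative run.

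Among the Fanconi anaemia members 3 of 5 were negative, with a median of -0.14. Fancd2 and Fanci encode the pair that is ubiquitinated at crosslinks. Fancd2 measured 14.0, 15.5, 6.55 and 14.9 CPM in heterozygote-labelled replicates 1 to 4, against 10.8, 15.1, 6.65 and 14.4 CPM in wild-type replicates 1 to 4. Replicate 3 was low under both labels, and the groups overlapped. Fancd2 differed by 0.12 on the log2 scale (SE 0.36). Fanci measured 13.5, 14.5, 16.5 and 26.9 CPM in heterozygote-labelled replicates 1 to 4, against 23.7, 28.5, 13.7 and 22.3 CPM in wild-type replicates 1 to 4, with a log2 fold change of -0.30 (SE 0.31). Fancl, the ubiquitin ligase of the pathway, differed by -0.17 (SE 0.23). Among core complex genes Fancc differed by -0.14 (SE 0.46) and Fanca, on 1 to 42 fragments per library, by 0.93 (SE 0.99).

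Of the checkpoint kinases, the 2 that act on breaks and the 2 that act on stalled forks all overlapped between the labels. Atm, the apical kinase of double-strand breaks, measured 21.5, 26.3, 20.6 and 24.4 CPM in heterozygote-labelled replicates 1 to 4, against 24.6, 23.3, 15.3 and 20.8 CPM in wild-type replicates 1 to 4. Atm differed by 0.14 on the log2 scale (interval -0.34 to 0.63). Chek2, its target kinase, measured 58.1, 51.5, 34.7 and 56.3 CPM in heterozygote-labelled replicates 1 to 4, against 68.0, 55.2, 51.6 and 65.0 CPM in wild-type replicates 1 to 4. All 4 heterozygote-labelled values lay below the wild-type mean, and Chek2 differed by -0.26 on the log2 scale (SE 0.19, adjusted p = 0.859).

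Atr, the kinase of stalled forks, measured 14.3, 25.7, 9.65 and 45.9 CPM in heterozygote-labelled replicates 1 to 4, against 28.9, 25.7, 30.5 and 32.3 CPM in wild-type replicates 1 to 4. The spread differed between the labels, with a coefficient of variation of 67.5% in heterozygote-labelled and 9.61% in wild-type libraries, a difference that was not tested. Atr differed by -0.30 on the log2 scale (SE 0.42), and by -0.83 without heterozygote-labelled replicate 4 (adjusted p = 0.780), and by -0.04 without heterozygote-labelled replicate 3. Chek1, the target of ATR, measured 83.3, 93.9, 123 and 67.4 CPM in heterozygote-labelled replicates 1 to 4, against 82.6, 58.2, 133 and 98.5 CPM in wild-type replicates 1 to 4. Its value of -0.02 (interval -0.60 to 0.56) changed sign in several alternatives.

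Both RecQ helicases among the members had negative values. Blm, which dissolves crossed-over DNA intermediates, measured 22.1, 28.3, 19.6 and 41.2 CPM in heterozygote-labelled replicates 1 to 4, against 48.0, 29.8, 27.7 and 30.0 CPM in wild-type replicates 1 to 4. Wild-type replicate 1 stood above the other wild-type libraries, and the log2 fold change was -0.28 (SE 0.28). Wrn, the helicase of Werner syndrome, ranged from 41.6 to 65.7 CPM in heterozygote-labelled libraries, with a mean of 54.1 ± 11.1, against 58.4 to 85.2 CPM and a mean of 69.8 ± 11.3 in wild-type libraries (SD, n = 4 each). Wrn differed by -0.37 on the log2 scale (SE 0.19, interval -0.79 to 0.05, adjusted p = 0.850).

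**Figure D3:**
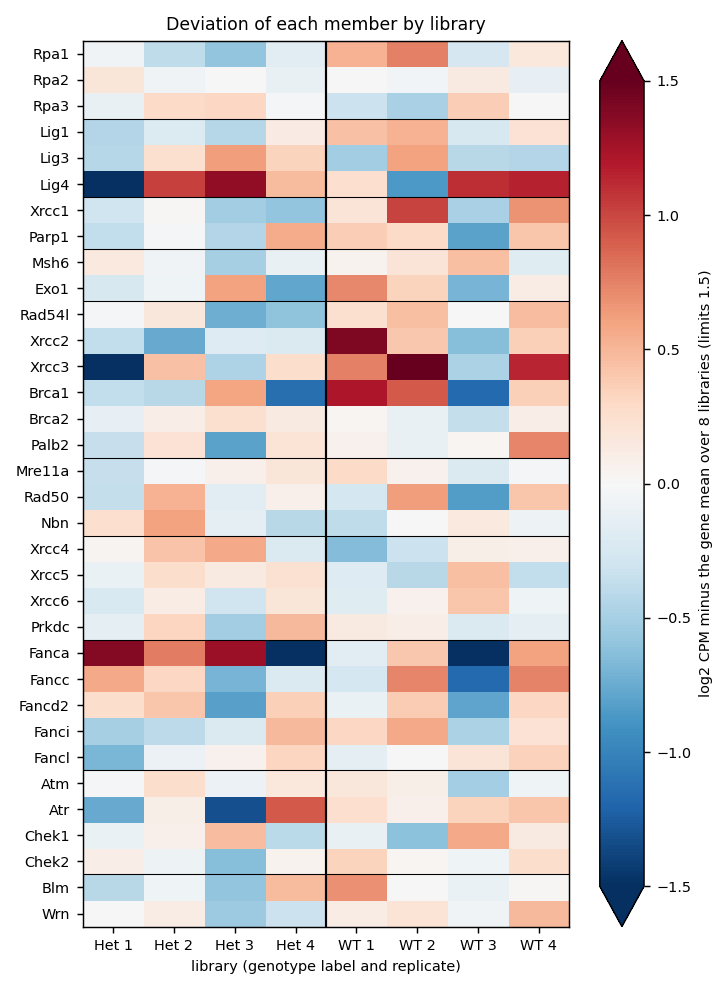
Deviation of each gene's log2 CPM from its own mean over the 8 libraries (colour, red high and blue low), with genes in rows grouped by pathway and the heterozygote-labelled libraries left of the black line. Heterozygote-labelled replicate 3 holds the lowest value for 11 genes and wild-type replicate 3 for 7.

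The lowest values were not spread evenly over the mice. Heterozygote-labelled replicate 3 held the lowest value of the 8 libraries for 11 members, wild-type replicate 3 for 7 and heterozygote-labelled replicate 1 for 6. The highest value was in wild-type replicate 1 or 2 for 6 members each. The median deviation of the members from their gene means was -0.19, 0.11, -0.20 and 0.10 on the log2 scale in heterozygote-labelled replicates 1 to 4, against 0.13, 0.14, -0.22 and 0.22 in wild-type replicates 1 to 4. Each label thus held libraries on both sides of 0, and in wild type replicate 3 alone was negative. The median coefficient of variation over members was 27.4% in heterozygote-labelled and 27.9% in wild-type libraries.

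Genes of replication and division were read beside the members, since many repair genes are made in S phase. The summed level of 26 replication genes ranged from 3339 to 3559 CPM in heterozygote-labelled and from 3286 to 4129 CPM in wild-type libraries, and 17 of the 26 had a negative log2 fold change (median -0.16). For 20 genes of mitosis the sums ranged from 1776 to 2024 CPM in heterozygote-labelled and from 1907 to 2319 CPM in wild-type libraries, with 17 of 20 negative and a median of -0.19. 0 genes of either list passed by edgeR, and of all genes tested 52.0% had a negative log2 fold change (median -0.02). The part of the share of dividing cells in the repair values was not tested. Of 7 megakaryocyte markers 6 were negative, and the median log2 fold change of the 7 was -0.62. Among them Vwf, the von Willebrand factor gene that stem cells primed toward platelets also express, measured 15.7, 18.7, 18.4 and 13.6 CPM in heterozygote-labelled replicates 1 to 4, against 26.9, 37.6, 31.3 and 25.3 CPM in wild-type replicates 1 to 4. The groups did not overlap, and Vwf differed by -0.87 on the log2 scale (SE 0.22), with an adjusted p of 0.850 by edgeR and 0.0142 by DESeq2. Itga2b, the platelet integrin gene, differed by -0.69 (SE 0.24, edgeR adjusted p = 0.850). The sum over the 7 ranged from 488 to 787 CPM in heterozygote-labelled and from 640 to 945 CPM in wild-type libraries, and most of it was Pf4, which averaged 560 ± 117 CPM in heterozygote-labelled and 653 ± 164 CPM in wild-type libraries (SD, n = 4 each). Of 6 erythroid markers tested 4 were negative, with a median of -0.47 and sums of 52.5 to 110 CPM in heterozygote-labelled and 57.6 to 152 CPM in wild-type libraries. The 5 progenitor markers had a median of 0.06, and the 8 stem cell markers one of 0.09. The part of these markers in the repair values was not tested.

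Of 107 further genes from the same pathways and from nucleotide excision repair and translesion synthesis, 103 passed the filter and 0 passed by edgeR. A negative log2 fold change was found in 66 of the 103 (64.1%), against 52.0% of all genes tested. Their median was -0.12. By pathway the medians were -0.02 for homologous recombination, 0.02 for end joining, -0.03 for Fanconi anaemia and 0.07 for mismatch repair. They were -0.18 for single-strand break and base excision repair, -0.13 for the checkpoint group and -0.21 for the RecQ group. Nucleotide excision repair had -0.24 and translesion synthesis -0.38. At an unadjusted edgeR p under 0.05 were 10 lower and 1 higher. Of all genes tested, 3.29% were lower and 2.37% higher at that level. Mad2l2, known as REV7, serves translesion polymerase zeta and the shieldin complex that limits resection. It measured 20.6, 30.0, 28.0 and 24.2 CPM in heterozygote-labelled replicates 1 to 4, against 42.5, 35.7, 38.9 and 42.8 CPM in wild-type replicates 1 to 4. The groups did not overlap, and Mad2l2 differed by -0.64 on the log2 scale (SE 0.18), with an adjusted p of 0.850 by edgeR and 0.0462 by DESeq2. It was the only one of the 103 that DESeq2 called.

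5 of the 103 had groups that did not overlap, all lower, with Mad2l2, Rad51d, Faap100 and Clspn among them. Of all genes tested, 1.82% had no overlap with the heterozygote-labelled libraries lower and 1.65% with them higher. Rad51d, which works in recombination as Xrcc2 does, ranged from 6.41 to 14.8 CPM in heterozygote-labelled and from 15.6 to 26.9 CPM in wild-type libraries, and its log2 fold change was -0.93 (SE 0.32). Faap100, a Fanconi core partner, averaged 0.877 ± 0.334 CPM in heterozygote-labelled and 3.40 ± 1.73 CPM in wild-type libraries. Ercc4, the incision nuclease XPF, differed by -1.38 (SE 0.47). H2afx, the histone variant phosphorylated at breaks, differed by -0.87 (SE 0.31), with wild-type replicate 3 at 45.2 CPM and the other wild-type libraries between 86.3 and 142 CPM. Mad2l2, Rad51d, Faap100, Ercc4 and H2afx each had an edgeR adjusted p of 0.850.

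Many of the members share their start region with another gene. 13 of the 34 (38.2%) had a protein-coding neighbour on the opposite strand whose start lay within 1000 bases upstream of their own, against 11.0% of 11418 tested protein-coding genes. The distance was 109 bases between Rpa1 and Smyd4, 150 between Rad54l and Pomgnt1, 307 between Atm and Npat, and 466 between Prkdc and Mcm4, a replicative helicase subunit. Counting was strand-specific, so reads of a neighbour are not counted for the member.

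Where both genes of such a pair were tested, 6 of 12 pairs had the same sign. Smyd4 measured 6.11, 7.84, 1.53 and 4.71 CPM in heterozygote-labelled replicates 1 to 4, against 9.43, 4.22, 14.3 and 3.39 CPM in wild-type replicates 1 to 4. The difference of -0.63 on the log2 scale (SE 0.59) equalled that of Rpa1 at a much larger error, and wild-type replicate 3 was its highest library, where Rpa1 had its lowest wild-type value. Pomgnt1, beside Rad54l, differed by -0.44 (SE 0.34). Nbr1, the autophagy receptor gene beside Brca1, differed by 0.20 (SE 0.30), and Zfyve21, beside Xrcc3, by 0.12 (SE 0.19). Mcm4 differed by -0.19 (SE 0.14) beside 0.11 for Prkdc. 0 of the 12 neighbours reached an unadjusted p under 0.05.

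**Figure D4:**
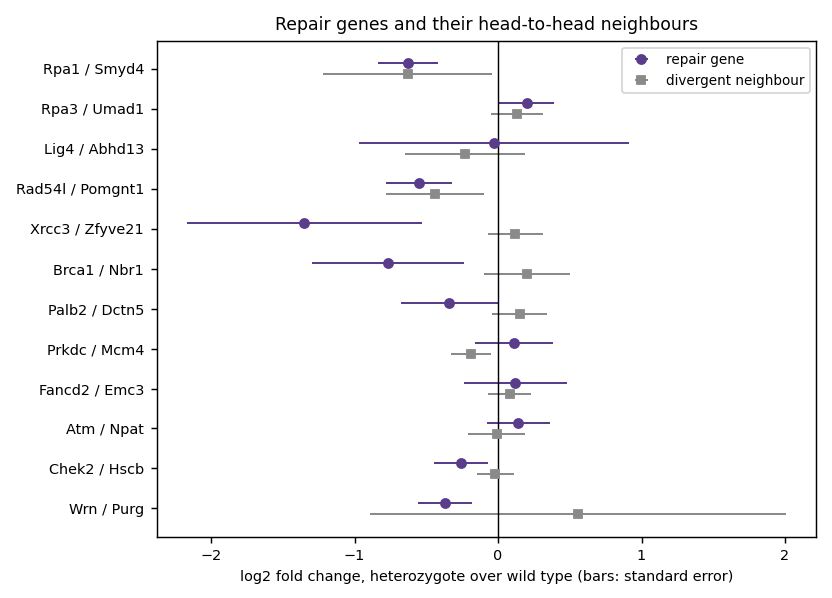
Log2 fold change, heterozygote label over wild type, of 12 repair genes (violet circles) and of the protein-coding gene that starts head to head with each (grey squares), with bars of 1 standard error from the edgeR fit. The pairs Rpa1 with Smyd4 and Rad54l with Pomgnt1 lie on the same side of 0, and Brca1 with Nbr1 and Xrcc3 with Zfyve21 on opposite sides.

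The precision of these measurements bounds what they can show. For 21 of the 34 members the 95% interval lay within a 2-fold difference in either direction, among them Rpa2, Msh6, Brca2, Xrcc5, Xrcc6, Atm, Chek1, Chek2 and all of the MRE11 complex. The biological coefficient of variation over all genes was 0.511, and 15 members had a log2 fold change of less than 0.2 in either direction. With 4 mice per label, 0 of the 34 were told from 0 at an edgeR adjusted p under 0.05.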

How the data were processed

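RNA of 8 libraries, 1 per mouse, was depleted of ribosomal RNA and sequenced as strand-specific read pairs, per the labels' protocols. The submitters' processing notes name Trim Galore, cutadapt, STAR 2.5.1b and GRCm38. The deposited values are raw counts of fragments per gene, made with featureCounts in reverse-stranded mode, both ends mapped, exons summed by gene of GENCODE M17, per the file headers, which name version 1.6.2 where the notes name 1.5.1. Same-strand overlap with another gene covered at most 0.789% of a member's exons.

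Groups and replicate numbers came from the library descriptions. Litters and sorting days were not analysed here. Symbols and GC content came from GENCODE of the same build. No 2 libraries agreed within sampling noise (lowest chi-square per degree of freedom 37.6).

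Genes were kept by filterByExpr, scaled by TMM (factors 0.946 to 1.08) and tested with robust quasi-likelihood fits in edgeR 4.0.16 (R 4.3.3), genotype as the only term, two-sided, with Benjamini-Hochberg adjustment over 13992 genes and a threshold of 0.05. A prior count of 2 was added for log2 CPM. The SE of a log2 fold change is its size over the root of F. Alternatives included limma 3.58.1 and DESeq2 1.42.0. Exact permutation tests used log2 CPM. The fit was tested on simulated data. Deviations of same-numbered libraries correlated over autosomal genes at 0.029, -0.007, 0.089 and 0.003, against -0.071 to 0.056 for different numbers. The value for replicate 3 was the highest of all. By Xist and Y-linked counts, replicates 1 and 4 were female and 2 and 3 male under both labels. Nothing in the labels says that equal numbers share a litter or batch, and whether they do was not tested. Replicate numbers were not treated as pairs in the main fit, and a replicate block was run as an alternative.

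The members and lists were chosen with earlier results of these data known. All 34 members are named. Those given in full had an unadjusted p under 0.05 or were fixed anchors of a pathway, and up to 6 other repair genes were named by unadjusted p among those with a mean of at least 1 CPM. A few items that these rules pick are not reported here.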

Additional observations from a re-analysis of the deposited data

Results flagged for a closer look

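A library far from the other 3 of its group was found in 6 of the 80 gene and group combinations examined (Dixon's test at the 95% level on log2 CPM), where chance alone flags about 1 in 20. Parp1 stood at 4.59 in wild-type replicate 3, against 5.67 to 5.80 in the other wild-type libraries. Lig3 stood at 4.91 in wild-type replicate 2, against 3.79 to 3.89. Blm stood at 5.59 in wild-type replicate 1, against 4.79 to 4.91. Lig4 stood at -2.75 in heterozygote-labelled replicate 1, a value from 1 fragment, against 2.19 to 3.04 in the others. In heterozygote-labelled replicate 3, Fancd2 stood at 2.73, against 3.82 to 3.97, and Faap100 at -1.06, against 0.10 to 0.26.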

How the results depend on the processing

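0 members passed by edgeR under any alternative run, nor by DESeq2 or limma, and between 19 and 24 members were negative throughout. DESeq2 called 79 genes in all, where edgeR and limma called 0. The count of members at an unadjusted p under 0.05, in either direction, was 2 with a term for sex and 1 to 9 when single libraries were left out. With the replicate block it was 3, and the median was -0.17. Without the block edgeR called 0 genes, so there was no call for the block to end. At the unadjusted level Xrcc2 was no longer among the members counted. For the exact permutation test, leaving out a library was not run. 27 of 40 named genes kept their sign in all alternatives. With the GC and length trend removed, Rpa3 was -0.02, Parp1 0.05, Xrcc6 0.04 and Fancc 0.03, and with the replicate block added they were -0.02, 0.05, 0.10 and 0.13, and Rad50 0.05. Under the replicate block alone Rad50 was 0.03 and Chek1 0.01. Chek1 was 0.05 by limma, and Rpa2 was -0.05 with library size alone. Leaving out libraries gave -0.04 to 0.06 for Rpa2, -0.42 to 0.39 for Lig4, -0.13 to 0.05 for Mre11a, -0.25 to 0.21 for Rad50, -0.01 to 0.33 for Nbn, -0.20 to 0.02 for Xrcc6, -0.05 to 0.27 for Prkdc, -0.41 to 0.10 for Fancc, -0.08 to 0.33 for Fancd2, -0.32 to 0.01 for Fancl and -0.19 to 0.20 for Chek1. The cause of these changes of sign was not tested. Lig4, Xrcc3 and Fanca each have at least 1 library with 1 to 3 fragments.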
